A study of Culex quinquefasciatus with 12 samples.

Results

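The transcript levels of untreated larval midgut were read from the Cy3 (green) channel of 12 Agilent 2-colour arrays of the southern house mosquito, Culex quinquefasciatus (JHB strain). These 12 samples are 12 of the 24 labelled samples in the series. The members were chosen by their label as untreated control midgut, and every gene probe on the array was kept, which gave 19751 genes with 2 to 6 spots each. Each sample was a pool of at least 20 midguts dissected from third-instar larvae that received no toxin, and 4 biological replicates were collected at each of 6, 12 and 18 h. The label of each array pairs such a pool with Cy5-labelled RNA from larvae fed the mosquitocidal BinA and BinB proteins for the same time, and levels were taken from the untreated channel. The scanner software had dye-normalized that channel against the toxin channel of the same array, so the levels are not wholly independent of the latter. The larvae given toxin had been starved for 3 h beforehand, and the sources used here do not say whether the untreated larvae were also starved. Each slide carried 4 arrays, all of the same time point, so the hours of the experiment and the slide cannot be told apart in any comparison below.

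The larval midgut of a mosquito is a tube of epithelium in which enterocytes secrete proteases, amylases and lipases and take up the products through transporters. Vacuolar proton pumps and carbonic anhydrase in its cells serve the strongly alkaline lumen of the anterior part, and peritrophins and chitin form the peritrophic matrix around the food. The foregut and hindgut, which join it at either end, are lined with cuticle, and the fat body, which lies close to it, makes the storage proteins that circulate in the haemolymph of larvae. In a dissected organ, fewer cells of a type and less RNA per cell cannot be told apart.

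Levels are given as the log2 of the background-subtracted, dye-normalized signal minus the 75th percentile of the same array, so that 0 marks the upper quartile of that array and 1 unit is a doubling of signal. Probes differ in how strongly they bind, so the order of genes is an order of signal and not of transcript number. Over gene means, the 75th percentile lay between 1586.4 and 2827.5 signal units on the 12 arrays. The percentile that was subtracted, which is meant from here on, was taken over spots. The 3 time points differed in the shape of this distribution: the array median lay 2.11 ± 0.0569 log2 units (SD, n = 4) below the 75th percentile for 6 h, against 2.51 ± 0.0691 for 12 h and 2.57 ± 0.0212 for 18 h (exact two-sided permutation test, p = 0.0286 for 6 against 12 h and for 6 against 18 h, the smallest that 4 against 4 arrays can give, and p = 0.2 for 12 against 18 h). At 12 h the arrays fell into pairs, with a median shift of gene ranks of 1.07 percentile points between replicates 1 and 3, 0.906 between replicates 2 and 4, and 1.78 to 1.91 for the other combinations. The call counts with either pair left out are given where the time points are compared.

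Proteases, carbohydrases and pump genes had high signals. The 55 genes on the list of digestive proteases had a median percentile rank of 95.4 over the 12 arrays, the 13 amylases, glucosidases and maltases one of 98.5, and the 11 genes of the proton pump, sodium pump and carbonic anhydrase one of 96.1, against 49.8 for all genes. All 13 carbohydrases, all 11 pump genes and 53 of the 55 proteases were well above background on all 12 arrays. The lists of lipases, nutrient transporters and peritrophic matrix and chitin had lower median ranks of 81.8, 75.9 and 69.5. High ranks were not particular to digestion and pumps. Lists of other cell functions had median ranks from 78.0 (antimicrobial and recognition proteins) to 94.9 (respiratory chain and its assembly). Glutathione transferases were at 94.5 and proteasome subunits at 92.8. The names come from genes that the study had tabulated for their toxin response on these arrays, and such genes had a median rank of 81.1 against 41.6 for genes with no name.

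The brightest signals were at the scanner's ceiling. Alpha-amylase B CPIJ005061, which splits starch, had every spot saturated on all 12 arrays, and so had the peptidoglycan recognition protein CPIJ016771, which binds bacterial cell wall. Saturation of all spots on all 12 arrays was seen for 39 genes in total, and on at least 1 array for 219. Between 72 and 187 genes were saturated in all spots of a single array, with means of 92.2 ± 16.6 for the 6 h arrays, 144.2 ± 29 for 12 h and 110.8 ± 28.4 for 18 h (SD, n = 4, exact two-sided permutation test, p = 0.0286 for 6 against 12 h, 0.143 for 12 against 18 h and 0.4 for 6 against 18 h). Genes at this ceiling have no order among themselves, and which genes enter the 20 with the highest means changed with the treatment of the signals (4 of the 20 stayed with median signals and no background correction). One of the 20 was CPIJ016608, a gene with no name in the tables, whose level was 7.30 ± 0.31 on the 6 h arrays, 7.32 ± 0.34 for 12 h and 7.52 ± 0.13 for 18 h (SD, n = 4), and its spots were all saturated on 3, 4 and 4 arrays. Of the 20 genes with the highest means, 2 had a name, and these were sterol carrier protein-2 CPIJ015124, which moves lipids between membranes, and acyl-CoA dehydrogenase CPIJ009148, an enzyme of fatty acid oxidation.

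Several other gut genes sat at or near the ceiling. Pancreatic triacylglycerol lipase CPIJ004225 had means of 7.09 ± 0.12, 7.12 ± 0.16 and 7.43 ± 0.07 at 6, 12 and 18 h (SD, n = 4), and the lipase CPIJ004228, the zinc carboxypeptidase A 1 CPIJ010137, which trims amino acids from the ends of peptides, and the cytochrome P450 3A19 CPIJ015428, a monooxygenase, were within the top 1% of the array at every time point. Maltase 1 CPIJ013170 had signals at 99.2, 99.1 and 99.5 percentile points and was saturated in every spot on all 4 arrays of both later time points. It carries the name of the membrane-bound sugar-splitting enzyme identified as the receptor of the binary toxin in Culex pipiens. Ribosomal protein S7 CPIJ006763 was saturated in at least 1 spot on 11 of the 12 arrays. Among the genes of this group that stayed on scale, alpha-glucosidase CPIJ008904 was at 4.68, 4.56, 4.42 and 4.59 on the 6 h arrays, 5.02, 4.95, 4.86 and 4.96 on the 12 h arrays and 4.64, 4.79, 4.80 and 4.74 on the 18 h arrays. No comparison of time points passed the test for this gene at the required size.

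The set of bright genes was largely shared between time points. Of the 200 genes with the highest mean at each time point, 144 (72%) were in the top 200 at all 3, and 166 (83%) were shared by 6 and 12 h, 155 (77.5%) by 12 and 18 h and 172 (86%) by 6 and 18 h. Saturated genes have no order, so part of this exchange is among tied values. Over the top 1000 genes, 870 (87%) were shared by all 3 time points.

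Markers of neighbouring tissues were read against the 74.5% of all genes and 96.9% of named genes that were above background on all 12 arrays. All 14 genes on the list of larval storage proteins and lipophorins, which fat body is known for, were well above background on all 12 arrays, with a median rank of 91.8 percentile points, and 22 of the 24 cuticle protein genes were, with a median rank of 60.8. All 7 muscle genes and both phenoloxidases, enzymes of haemocytes, were well above background on all 12 arrays with median ranks of 78.4 and 68.2, and 9 of 10 salivary gland genes were, with a median rank of 71.8. The list of nervous system and sensory proteins, which holds odorant-binding proteins that other tissues also express, had 23 of 24 members above background throughout. The summed signal of the storage protein list was 0.0972% to 0.143% of all gene signal on the 6 h arrays, 0.292% to 0.497% for 12 h and 0.423% to 0.538% for 18 h. That of the cuticle list was 0.0567% to 0.0629%, 0.0355% to 0.0517% and 0.0123% to 0.015%, and that of the muscle list 0.0344% to 0.0398%, 0.0339% to 0.0502% and 0.0307% to 0.0345%. The part of attached tissue in any change below was not tested.

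Most genes on the array were detected. The scanner software's mark for a signal well above background was carried by at least 1 probe of 15355 to 18034 genes per array, which is 77.7% to 91.3%. The mean share was 85.2 ± 6.12% for 6 h, 86.5 ± 2.56% for 12 h and 83.5 ± 2.18% for 18 h (SD, n = 4), and the time points did not differ beyond the spread between arrays (exact two-sided permutation test, p = 0.771 for 6 against 12 h, 0.143 for 12 against 18 h and 0.686 for 6 against 18 h). Over the 12 arrays, 14715 genes (74.5%) were above background on all of them, 4149 (21%) on 1 to 11 of them and 887 (4.49%) on none. The lowest and highest shares were both at 6 h, on replicates 1 and 4.

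**Figure D1:**
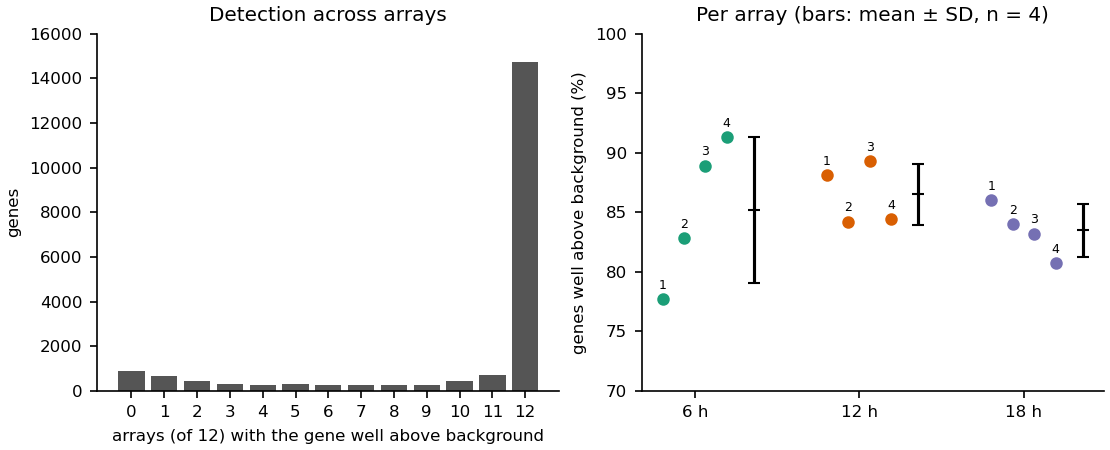
Number of genes by how many of the 12 arrays showed a signal well above background, and the share of genes above background on each array by time point. The distribution has its peak at all 12 arrays with 14715 genes, and the 6 h arrays span 77.7% to 91.3%.

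Of the 887 genes above background on no array, 12 have a name in the tables, against 3663 of the 3781 named genes (96.9%) that were above background on all 12. These 12 include sulfakinin CPIJ004208, a neuropeptide that curbs feeding in insects, a sugar transporter CPIJ004517, the transcription factor IIIB 90 kDa subunit CPIJ008273, which serves RNA polymerase III, and pita CPIJ010913, a zinc finger protein in Drosophila. The others are a helicase C-terminal domain protein CPIJ002447, pyridoxal phosphate phosphatase CPIJ010741 and 6 hypothetical proteins. For these 12 genes the arrays give only that the signal was not well above background, and none of them is shown to be absent. Among the 15970 genes with no name, 875 (5.48%) were above background on no array.

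Few genes passed from undetected to detected. Between 6 and 12 h, 22 genes went from above background on none of the 4 arrays to all 4, and 9 went the other way. Between 12 and 18 h, 3 genes were gained and 79 lost by the same measure, and between 6 and 18 h 21 were gained and 31 lost. The gains from 6 to 12 h held 3 genes with an informative name: serine protease CPIJ000438, cathepsin B CPIJ000577, a cysteine protease, and CPIJ002281, named sptzle 6 in the tables. The losses from 12 to 18 h held 2, zinc metalloproteinase nas-8 CPIJ010223 and the salivary lipase CPIJ005463.

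The rank order of genes shifted little between time points, but by more than between replicates. For 2 arrays of the same time point, the median gene moved by 1.04 to 1.47 percentile points for 6 h, 0.906 to 1.91 for 12 h and 0.765 to 1.29 for 18 h. For arrays of 12 and 18 h the median shift was 2.57 ± 0.178 points (SD over 16 pairs of arrays, range 2.24 to 2.84). It was 3.29 ± 0.187 for 6 and 12 h (2.95 to 3.67) and 3.78 ± 0.184 for 6 and 18 h (3.57 to 4.15). The lowest value between time points, 2.24, lay above the highest value within one, 1.91, and pairs that share an array are not independent. Spearman's rho across genes, which are not independent replicates, was 0.992 to 0.996 within a time point, 0.982 to 0.986 for 12 and 18 h, 0.971 to 0.980 for 6 and 12 h and 0.965 to 0.972 for 6 and 18 h.

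**Figure D2:**
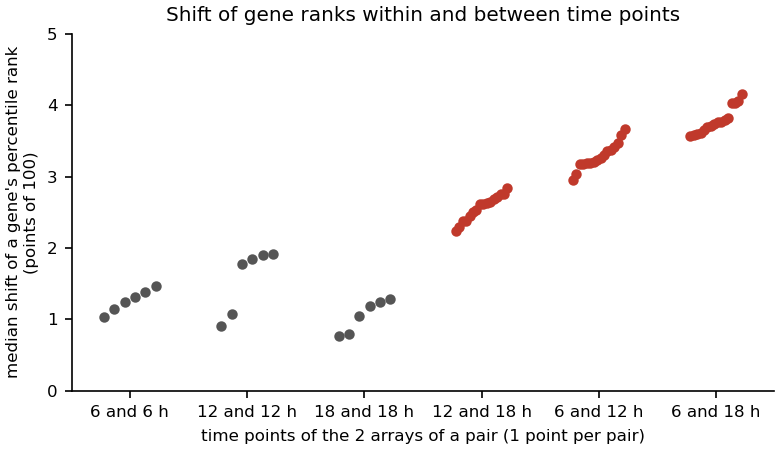
Median absolute shift of percentile rank over 19751 genes for each pair of arrays, grouped by whether the 2 arrays share a time point. Pairs within a time point lie at 0.765 to 1.91 points, and pairs of different time points lie at 2.24 to 4.15 points, with 6 against 18 h highest.

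Large shifts of rank were rare. Among the 16380 genes well above background on all 4 arrays at 6 h or at 12 h, 53 rose and 49 fell by 20 percentile points or more from 6 to 12 h (0.623%). From 12 to 18 h, 21 rose and 55 fell by that much among 16376 genes (0.464%), and from 6 to 18 h, 116 rose and 75 fell among 15957 (1.2%). Synaptic vesicle protein CPIJ017597 changed by -51.5 points from 12 to 18 h. The rank of a gene on arrays where it was not well above background is only an order of dim signals.

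From 6 to 12 h, storage protein genes, a proton pump subunit, a pair of carboxypeptidases and a serine protease rose. The genes that fell were mostly dim. A gene counts as changed when the limma test over all 19751 genes gave a Benjamini-Hochberg adjusted p under 0.05, the log2 difference was at least 0.75 and the gene was above background on all 4 arrays of the brighter time point. By this measure 3978 genes changed, 760 higher and 3218 lower at 12 h, so 19.1% of the changed genes were higher. This split depended on the scaling. The median difference over all genes was -0.28, and in 4 bins of equal size by mean level, from the dimmest to the brightest, it was -0.70, -0.54, -0.11 and 0.23; the change of distribution given above runs the same way. When each array was scaled to its median in place of its 75th percentile, 73.1% of 4640 changed genes were higher, and after quantile normalization 49.3% of 2980 were. Leaving out 12 h replicates 1 and 3 gave 4138 changed genes, and leaving out replicates 2 and 4 gave 4045. The changed genes named below kept their direction with quantile normalization, which levels the distributions.

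**Figure D3:**
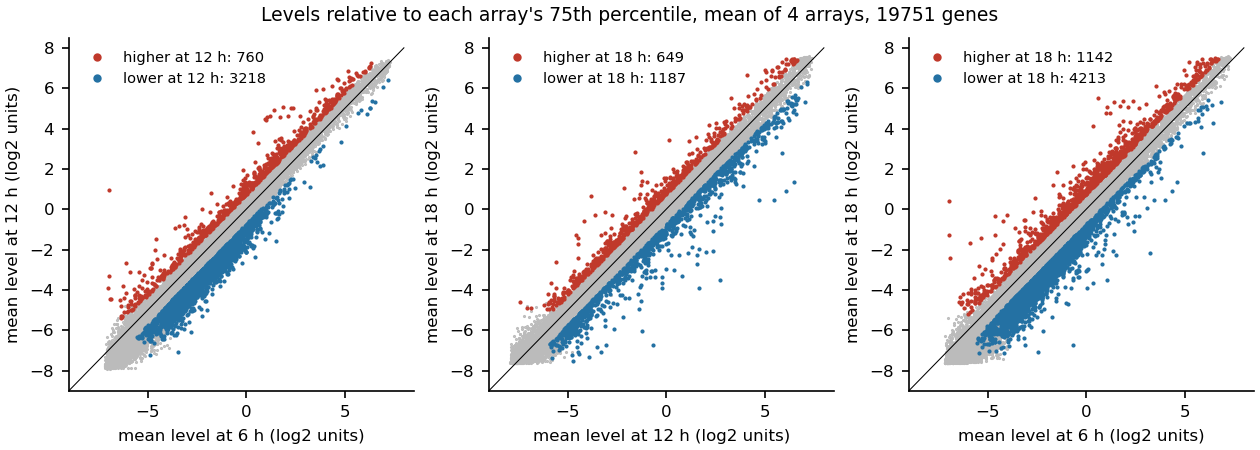
Mean level of 19751 genes at a later against an earlier time point (mean of 4 arrays, log2 units relative to the 75th percentile of each array), with genes called higher in red and lower in blue and the line of equal level. In the plots of 12 against 6 h and 18 against 6 h the blue genes (3218 and 4213) lie mostly in the lower part of the range, and fewer genes are coloured between 12 and 18 h (649 higher, 1187 lower).

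Storage protein genes had the largest median shift of any list from 6 to 12 h. Of its 14 members, 11 were higher at 12 h and none lower, against 3.85% of all genes called higher and 16.3% called lower, and the median difference was 2.54 against -0.28 for all genes. Larval serum proteins and arylphorins are hexamers that store amino acids for metamorphosis. The larval serum protein 1 beta chain CPIJ006538 read 1.20, 1.11, 0.93 and 0.98 on the 6 h arrays, 4.14, 4.73, 4.64 and 4.68 on the 12 h arrays and 5.11, 5.01, 5.12 and 5.02 on the 18 h arrays. The arrays of 6 h lay more than 2 units below all others, with a difference from 6 to 12 h of 3.49 ± 0.12 (SE, limma, adjusted p = 8.96e-09), which is 11.2-fold. The genes CPIJ006537, CPIJ018824 and CPIJ018825, which carry the same name, rose by 3.45, 3.46 and 3.37. CPIJ006537 and CPIJ006538 as well as CPIJ018824 and CPIJ018825 have consecutive identifiers, and whether their probes bind each other's RNA was not tested.

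Larval serum protein 2 CPIJ001822 read 3.41, 3.59, 3.39 and 3.71 on the 6 h arrays, 5.13, 6.21, 6.06 and 6.19 on the 12 h arrays and 6.03, 5.96, 6.25 and 6.18 on the 18 h arrays. Its rise from 6 to 12 h was 2.37 ± 0.21 (SE, limma, adjusted p = 3.22e-06). Arylphorin subunit C223 CPIJ009033 read 4.46, 5.18, 5.40 and 5.81 on the 6 h arrays against 5.05, 7.04, 7.19 and 6.83 on the 12 h arrays, and the groups overlapped because replicate 1 was low at 12 h. Replicate 1 was the lowest of the 12 h arrays for 10 of the 14 members of the list.

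A second group of rises lay in genes of digestion and transport. Serine protease CPIJ000438 read -6.28, -6.70, -7.09 and -7.69 at 6 h, where it was not well above background on any array, and 0.95, 0.90, 1.16 and 0.75 at 12 h. It was at least 55.3-fold higher at 12 h, when the 6 h arrays are set no lower than the dimmest signal still well above background on each of them (fitted difference 7.88 ± 0.23, SE, limma, adjusted p = 2.47e-09). It stayed at 0.44, 0.47, 0.41 and 0.36 at 18 h, and the adjacent serine protease CPIJ000437 fell by 0.92 from 6 to 12 h. Cathepsin B CPIJ000577 also came from below background. With the method used here its means passed the test between every pair of time points, at least 1.32-fold from 6 to 12 h and 4.07-fold from 12 to 18 h. The call from 6 to 12 h depended on the background correction. Normexp background correction was run with an offset of 50 signal units, which by itself makes log2 differences of dim genes smaller. With this correction and without the 3 arrays of bright local background, the difference was 0.20. It was 0.58 with median signals and no background correction, and both values are below the required size. The fall of CPIJ000437 from 6 to 12 h was below this size with median scaling (-0.51) and with no scaling between arrays (-0.60). With normexp background correction and without those 3 arrays the difference of CPIJ000437 was -0.67, also below this size.

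Of the 55 digestive proteases, 9 were higher and 3 lower at 12 h, with a median difference of 0.20 that was -0.00 with quantile normalization. The zinc carboxypeptidases CPIJ011997 and CPIJ009394 rose by 3.10 ± 0.20 and 2.65 ± 0.12 (SE, limma, adjusted p = 5.12e-07 and 5.13e-08). Of the 13 amylases, glucosidases and maltases none changed from 6 to 12 h by this measure, with a median difference of -0.01. Of 20 lipases, 7 were higher and 3 lower. Lipase member I CPIJ004216 rose by 2.09 ± 0.18, and the pancreatic triacylglycerol lipase CPIJ019227 fell by 2.16 ± 0.25 (SE, limma, adjusted p = 2.60e-06 and 2.17e-05). The rise of CPIJ004216 was 0.39 with normexp background correction over the 9 arrays without bright local background. It was 0.73 with median signals and no background correction, and neither value passed.

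Of the 11 pump genes, 3 were higher and none lower at 12 h, and all 11 differences were positive, with a median of 0.61 that became 0.30 with quantile normalization. The vacuolar proton translocating ATPase 116 kDa subunit CPIJ003274, part of the membrane sector of the pump, read 1.29, 1.36, 1.25 and 1.26 on the 6 h arrays, 2.63, 2.98, 2.71 and 2.90 on the 12 h arrays and 2.77, 2.96, 3.00 and 2.87 on the 18 h arrays. It rose by 1.51 ± 0.09 (SE, limma, adjusted p = 2.37e-07) from 6 to 12 h and did not change further by the measure used. The beta chain of the same pump, CPIJ003418, rose by 0.95 ± 0.06 (SE, limma, adjusted p = 5.50e-07), but by 0.60 with quantile normalization, which is below the required size. Of 45 nutrient transporters 8 were higher and 2 lower, and of 9 genes of the peritrophic matrix and chitin 4 were higher and 1 lower. These list counts from 6 to 12 h, and those of the defence and detoxification lists given after them, stand against 3.85% of all genes called higher and 16.3% called lower. All list members are named genes, and 641 of the 3781 named genes were called in either direction. In the brightest of the 4 bins by mean level, 431 of 4938 genes were called higher and 106 lower.

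**Figure D4:**
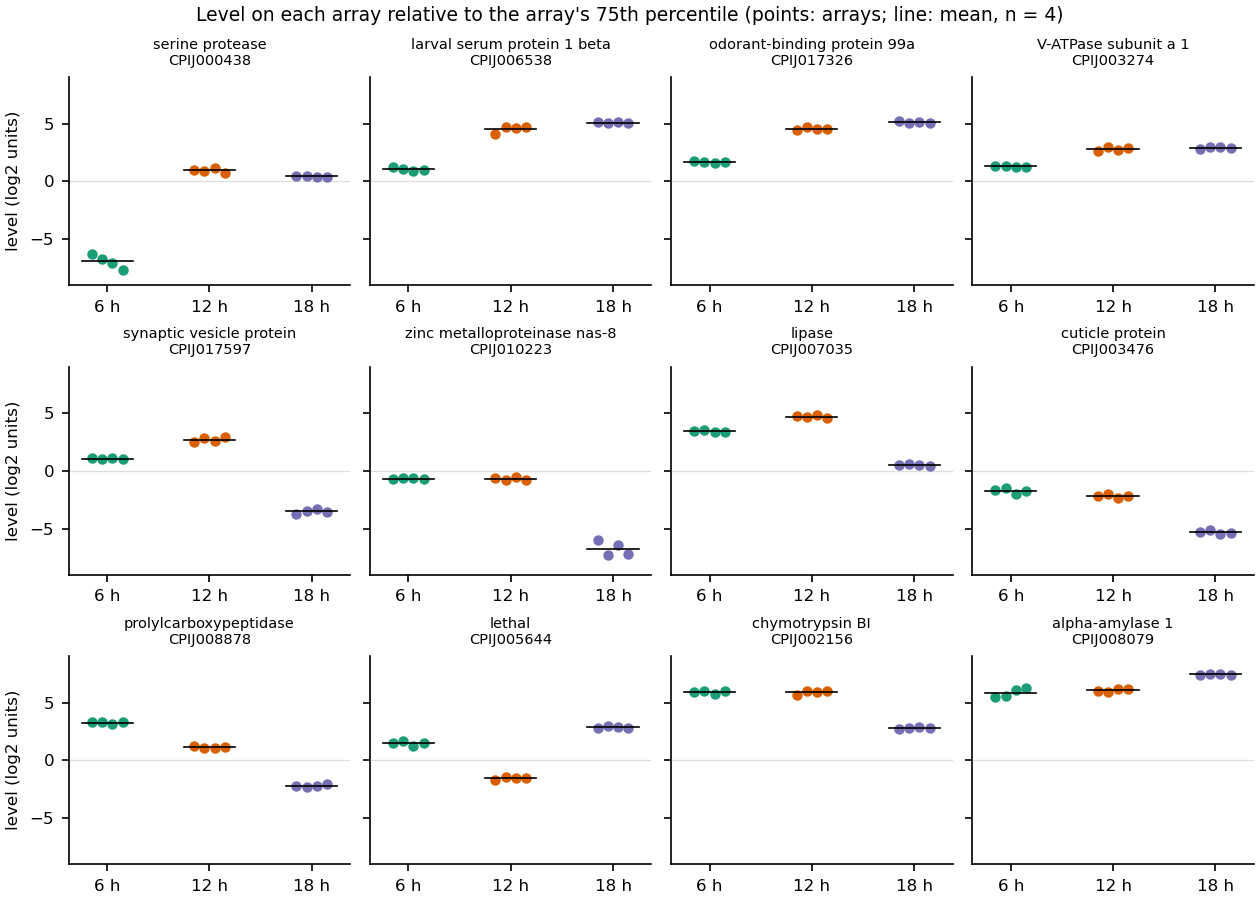
Level of 12 genes on each of the 12 arrays at 6, 12 and 18 h, in log2 units relative to the 75th percentile of the array. Larval serum protein 1 beta chain CPIJ006538 and the proton pump subunit CPIJ003274 rise from 6 to 12 h and stay high, lipase CPIJ007035 and synaptic vesicle protein CPIJ017597 fall from 12 to 18 h, and the gene named lethal, CPIJ005644, is lowest at 12 h.

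Genes of other functions moved in both directions from 6 to 12 h. The general odorant-binding protein 99a CPIJ017326, of a family of small secreted carriers of hydrophobic molecules, read 1.80, 1.71, 1.59 and 1.68 on the 6 h arrays and 4.41, 4.72, 4.53 and 4.54 on the 12 h arrays. All 4 arrays of 12 h were above those of 6 h, with a rise of 2.86 ± 0.08 (SE, limma, adjusted p = 2.47e-09, 7.24-fold), and at 18 h it read 5.23, 5.03, 5.12 and 5.03. The odorant-binding proteins 56e, CPIJ018957 and CPIJ012718, fell in the same interval by 1.59 and 1.67, and again by 2.17 and 1.96 from 12 to 18 h. With normexp background correction over the 9 arrays without bright local background, their differences from 12 to 18 h were -0.62 and -0.54. Both are below the required size. Fatty acid synthase S-acetyltransferase CPIJ003494, whose name is that of a step in lipid synthesis, was at -6.28, -6.52, -6.41 and -5.29 on the 6 h arrays and -2.22, -3.04, -2.19 and -3.21 on the 12 h arrays. It fell back to between -6.14 and -5.62 at 18 h, so that only the 12 h arrays were high. For this dim gene the rise was 0.49 with normexp background correction over the 9 arrays without bright local background, and no longer passed.

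Among defence genes, gambicin CPIJ016084, an antimicrobial peptide of mosquitoes, fell by 1.58 ± 0.09, and lysozyme c-4 CPIJ010731, which breaks down bacterial walls, fell by 1.66 ± 0.15 (SE, limma, adjusted p = 1.80e-07 and 4.22e-06) from 6 to 12 h. Of the 16 antimicrobial and recognition genes 2 were higher and 2 lower. Over this list 11 differences were positive and 5 negative, with a median of 0.39 that was 0.31 with quantile normalization. Of 90 cytochrome P450 genes 19 were higher and 4 lower, with a median difference of 0.37 that was 0.20 with quantile normalization, and of 26 glutathione transferases 6 were higher and 1 lower, with medians of 0.37 and 0.17. The P450 4C1 CPIJ016284 rose by 1.46 ± 0.09 and glutathione S-transferase theta-2 CPIJ002679, of a family that conjugates foreign compounds, fell by 1.50 ± 0.08 (SE, limma, adjusted p = 3.04e-07 and 2.02e-07). Of the 5 genes with the largest falls, 4 had no name, as had 15970 of all 19751 genes. CPIJ020215, the first of the 5, was at least 4.54-fold lower at 12 h.

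From 12 to 18 h, most cuticle proteins, a run of adjacent lipases, a pair of metalloproteinases, and parts of the mitochondrial ribosome and proteasome lists fell, while a run of adjacent small heat shock genes, a pair of amino acid transporters, 2 amylases and an alpha-glucosidase rose. By the same measure 1836 genes changed, 649 higher (3.29% of all genes) and 1187 lower (6.01%), with a median difference of -0.07 over all genes. The share of changed genes that were higher was 35.3%, against 45.8% with median scaling and 47% with quantile normalization. Without 12 h replicates 1 and 3, 1747 genes changed, and without replicates 2 and 4, 2527 did. Names were available for 997 of the 1836 genes, and 3781 of the 19751 genes have a name. In the brightest of the 4 bins by mean level, 287 of 4938 genes were called higher and 478 lower. The tables from which the names come list genes that changed with toxin at these same times on these arrays.

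Most cuticle protein genes fell. Of 24 members 18 were lower at 18 h than at 12 h and none higher, with a median difference of -1.66, and 20 were lower and 1 higher at 18 h than at 6 h, with a median of -2.17. Cuticle protein CPIJ003476 read -1.67, -1.51, -1.99 and -1.73 on the 6 h arrays, -2.18, -2.05, -2.35 and -2.19 on the 12 h arrays and -5.29, -5.16, -5.46 and -5.36 on the 18 h arrays. The 18 h arrays lay about 3 units below the rest, with a fall of 3.13 ± 0.11 (SE, limma, adjusted p = 3.12e-09) from 12 to 18 h. The cuticle protein CP14.6 CPIJ016323 fell by 3.19 ± 0.23 and cuticle protein CPIJ003453 by 2.58 ± 0.21 (SE, limma, adjusted p = 1.03e-06 and 2.99e-06). The only member that was higher at 18 h than at 6 h was the pupal cuticle protein CPIJ019804, by 1.03 ± 0.09 (SE, limma, adjusted p = 1.35e-06). Its rise was 0.73 with normexp background correction over the 9 arrays without bright local background, which is below the required size. With normexp background correction over 9 arrays the list medians were -0.90 from 12 to 18 h and -1.29 from 6 to 18 h, and the differences of CPIJ003476 and CPIJ003453 from 12 to 18 h were -0.88 and -1.26. With normexp over all 12 arrays these 2 genes no longer passed. The summed signal of this list, given above, did not overlap between 12 and 18 h.

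The largest falls from 12 to 18 h included pairs of genes with consecutive identifiers. Synaptic vesicle protein CPIJ017597, of a family of membrane transporters known from vertebrate synapses, read 1.07, 1.03, 1.08 and 1.02 on the 6 h arrays, 2.49, 2.86, 2.60 and 2.90 on the 12 h arrays and -3.70, -3.45, -3.29 and -3.56 on the 18 h arrays. It was highest at 12 h and fell by 6.21 ± 0.11 (SE, limma, adjusted p = 2.10e-11, 74.1-fold) to 18 h, and the next gene down, CPIJ017596, named synaptic vesicle glycoprotein 2A, rose by 1.44 and then fell by 4.15. Zinc metalloproteinase nas-8 CPIJ010223, of the astacin family, was at -0.74, -0.62, -0.66 and -0.72 on the 6 h arrays, -0.62, -0.78, -0.55 and -0.80 on the 12 h arrays and -5.98, -7.32, -6.47 and -7.18 on the 18 h arrays. It was not well above background on any 18 h array and at least 24.5-fold lower than at 12 h (fitted difference -6.05 ± 0.24, SE, limma, adjusted p = 7.87e-09). The adjacent metalloproteinase CPIJ010224 fell by 5.57 ± 0.08 (SE, limma, adjusted p = 3.45e-12).

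Lipases moved in opposite directions within the family. Lipase CPIJ007035 read 3.41, 3.54, 3.37 and 3.38 on the 6 h arrays, 4.77, 4.66, 4.84 and 4.55 on the 12 h arrays and 0.49, 0.57, 0.47 and 0.40 on the 18 h arrays. It rose by 1.28 and then fell by 4.22 ± 0.08 (SE, limma, adjusted p = 2.30e-11, 18.6-fold), and the neighbouring lipases CPIJ007033 and CPIJ007034 fell by 4.30 and 3.39 from 12 to 18 h. Lipase 3 CPIJ002715 went the other way, from 2.62, 2.38, 2.59 and 2.49 at 12 h to 4.20, 4.28, 4.25 and 4.29 at 18 h. Over the 20 lipases, 5 were higher and 5 lower at 18 h.

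Proteases also diverged. Chymotrypsin BI CPIJ002156, a serine protease that cuts after aromatic residues, held at 5.94, 6.02, 5.71 and 6.00 on the 6 h arrays and 5.63, 5.99, 5.93 and 5.99 on the 12 h arrays and dropped to 2.74, 2.78, 2.87 and 2.78 at 18 h. The fall was 3.09 ± 0.10 (SE, limma, adjusted p = 1.22e-09, 8.53-fold). Chymotrypsinogen 2 CPIJ006544 rose from -1.21, -1.29, -1.23 and -1.36 at 12 h to 1.85, 1.86, 1.86 and 1.78 at 18 h, a difference of 3.11 ± 0.18 (SE, limma, adjusted p = 1.92e-07). Of the 55 digestive proteases, 9 were higher and 6 lower at 18 h than at 12 h, with a median difference of 0.12. Prolylcarboxypeptidase CPIJ008878, which removes residues that follow a proline, fell in both intervals, from 3.33, 3.31, 3.11 and 3.29 at 6 h to 1.23, 1.04, 1.05 and 1.12 on the 12 h arrays and -2.26, -2.28, -2.20 and -2.02 on the 18 h arrays. Its fall from 6 to 18 h was 5.45 ± 0.08 (SE, limma, adjusted p = 8.06e-12, 43.7-fold).

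Of the 13 amylases, glucosidases and maltases 3 were higher at 18 h than at 12 h and none lower, with a median difference of 0.54 that was 0.19 with quantile normalization. Alpha-amylase 1 CPIJ008079 read 5.50, 5.58, 6.09 and 6.30 on the 6 h arrays, 5.98, 5.95, 6.19 and 6.19 on the 12 h arrays and 7.43, 7.49, 7.47 and 7.38 on the 18 h arrays. At least 1 of its 2 spots was saturated on all 4 arrays at 18 h, so the difference of 1.36 ± 0.16 (SE, limma, adjusted p = 4.12e-05) is bounded by the scanner's ceiling. The tryptophan transporter CPIJ012065 fell by 1.34 from 6 to 12 h and then rose by 3.18 ± 0.12, and the amino acid transporter CPIJ012066 beside it fell by 0.79 and then rose by 2.21 ± 0.06 (SE, limma, adjusted p = 5.77e-09 and 6.76e-10 for the rises). The fall of CPIJ012066 was below the required size with median scaling (-0.38) and with no scaling between arrays (-0.47). The same held with its brightest probe (-0.74) and with median signals and no background correction (-0.74). With normexp background correction and without the 3 arrays of bright local background the difference was -0.69, also below that size. The sodium/solute symporters CPIJ002361 and CPIJ001859 went opposite ways from 12 to 18 h, by 3.26 ± 0.30 and -1.98 ± 0.17 (SE, limma, adjusted p = 7.63e-06 and 4.33e-06). On the 12 h arrays CPIJ002361 read 0.56, -0.55, 0.94 and -0.33 and CPIJ001859 read 3.80, 3.16, 3.87 and 3.04, with replicates 1 and 3 above replicates 2 and 4 for both. Over the 45 transporters 4 were higher and 5 lower.

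Over the 17 heat shock genes 3 were higher and 6 lower at 18 h than at 12 h, with a median difference of -0.64 that was -0.69 with quantile normalization. The gene named lethal in the tables, CPIJ005644, read 1.53, 1.63, 1.28 and 1.53 on the 6 h arrays, -1.72, -1.44, -1.55 and -1.56 on the 12 h arrays and 2.77, 2.95, 2.90 and 2.80 on the 18 h arrays. The 3 time points did not overlap, and the gene fell by 3.06 ± 0.09 and then rose by 4.42 ± 0.09 (SE, limma, adjusted p = 2.47e-09 and 5.38e-11). The small chaperones named heat shock protein 27 CPIJ005642, heat shock protein 22 CPIJ005645 and alphaA-crystallin CPIJ005646, whose identifiers lie next to it and which were printed for that reason, rose by 2.64 ± 0.11, 2.13 ± 0.15 and 2.47 ± 0.34 from 12 to 18 h. On the 12 h arrays CPIJ005646 ranged from -2.18 to -0.19, which is the widest spread of the 4 genes. Heat shock protein 83 CPIJ015075, the insect Hsp90, rose by 1.29 ± 0.08 and then fell by 1.81 ± 0.08 (SE, limma, adjusted p = 3.34e-07 and 2.01e-08), and the mitochondrial 60 kDa heat shock protein CPIJ008889 fell by 2.42 ± 0.14 (SE, limma, adjusted p = 2.41e-07) from 12 to 18 h. Outside this list, a gene named fibrinogen and fibronectin, CPIJ012830, followed the course of lethal, falling by 2.44 and then rising by 4.44 ± 0.10 (SE, limma, adjusted p = 8.17e-11).

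Parts of the lists for the mitochondrion and the proteasome fell from 12 to 18 h. Of 44 mitochondrial ribosomal proteins, which build the ribosomes of that organelle, 24 were lower and none higher, all 44 differences were negative and the median was -0.78, or -0.69 with quantile normalization. Mitochondrial ribosomal protein L53 CPIJ006139 read 1.52, 1.44, 1.46 and 1.66 on the 12 h arrays and -0.04, -0.00, 0.09 and 0.09 on the 18 h arrays, a fall of 1.49 ± 0.07 (SE, limma, adjusted p = 3.17e-08). Of 31 proteasome subunits, parts of the complex that degrades ubiquitin-tagged proteins, 12 were lower and none higher, and all 31 differences were negative with a median of -0.65. The 26S protease regulatory subunit 4 CPIJ011552 read 5.90, 5.66, 5.95 and 5.64 on the 12 h arrays and 4.91, 4.91, 4.95 and 4.91 on the 18 h arrays. At 12 h its replicates 1 and 3 lay above replicates 2 and 4. Its difference of -0.87 was below the required size with its brightest probe (-0.65) and with median signals and no background correction (-0.71). The same held without 12 h replicates 1 and 3 (-0.73), and with normexp background correction without the 3 arrays of bright local background (-0.72). Of 12 genes of the respiratory chain and its assembly 5 were lower and none higher, and cytochrome c CPIJ019024, the electron carrier between complexes, fell by 1.88 ± 0.14 (SE, limma, adjusted p = 1.18e-06). At 12 h cytochrome c read 6.76, 6.32, 6.97 and 6.39, again with replicates 1 and 3 above replicates 2 and 4, and it read 4.72, 4.59, 4.82 and 4.80 at 18 h.

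For these lists the counts depended on the scaling. Median scaling gave 19 mitochondrial ribosomal proteins and 14 proteasome subunits higher at 12 h than at 6 h, against none by the 75th percentile, and none of either list lower at 18 h than at 6 h, against 7 and 3. The count of lower members from 12 to 18 h ranged from 18 to 38 for mitochondrial ribosomal proteins and from 9 to 30 for proteasome subunits over the 10 alternatives run for the lists. Over the same alternatives 10 to 11 storage protein genes were higher from 6 to 12 h and 14 to 19 cuticle protein genes lower from 12 to 18 h.

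**Figure D5:**
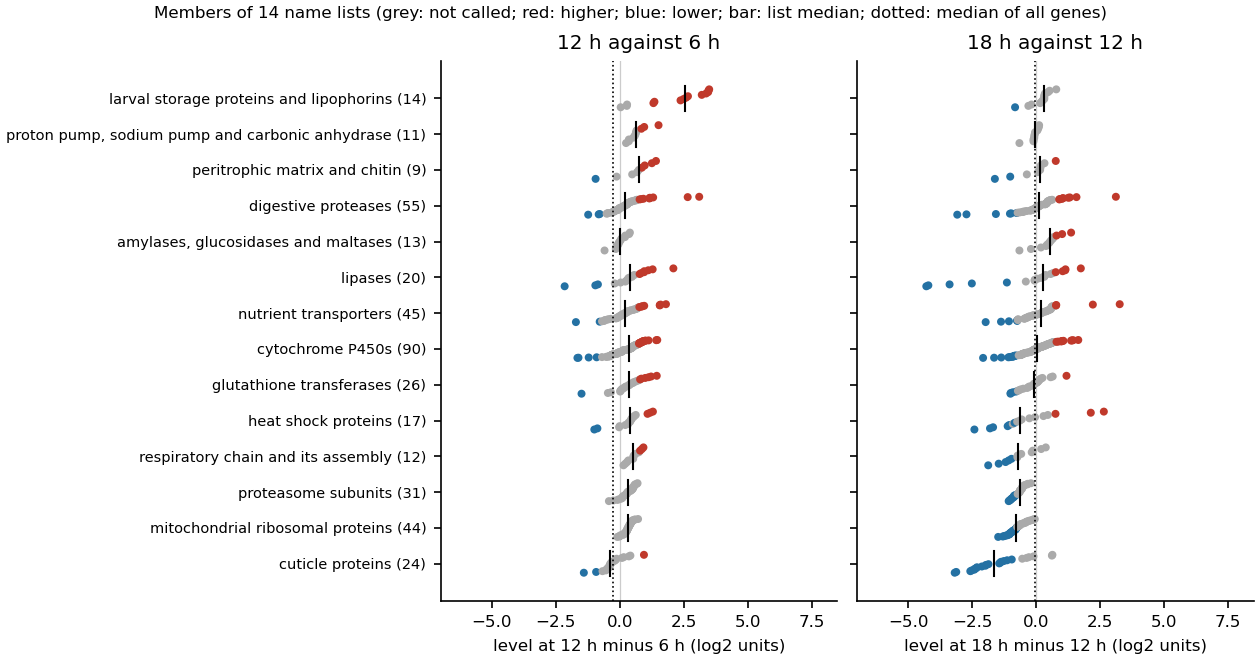
Differences of the members of 14 gene lists from 6 to 12 h and from 12 to 18 h, in log2 units, 1 point per gene, with the median marked. Storage proteins lie highest from 6 to 12 h (median 2.54), cuticle proteins lie lowest from 12 to 18 h (median -1.66), and all mitochondrial ribosomal proteins and proteasome subunits lie below 0 in the later interval.

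Of 18 juvenile hormone and ecdysone genes 4 were lower and none higher at 18 h than at 12 h, and juvenile hormone esterase CPIJ002073, which degrades juvenile hormone, rose by 1.07 ± 0.11 from 6 to 12 h and fell by 1.35 ± 0.11 from 12 to 18 h (SE, limma, adjusted p = 1.28e-05 and 4.04e-06). Of 12 histone and DNA polymerase genes 3 were higher and 4 lower, and the linker histones H1, CPIJ012377 and CPIJ012387, rose by 1.07 ± 0.08 and 0.78 ± 0.09 (SE, limma, adjusted p = 1.16e-06 and 4.40e-05). The difference of CPIJ012387 was below the required size with its brightest probe (0.49), with no scaling (0.36), without 12 h replicate 4 (0.74), without 18 h replicate 1 (0.72) and without 12 h replicates 2 and 4 (0.68). Defensin-A CPIJ001276, an antimicrobial peptide, read 1.31, 1.33, 1.29 and 1.30 on the 12 h arrays and 2.78, 2.86, 2.82 and 2.71 on the 18 h arrays, a rise of 1.48 ± 0.08 (SE, limma, adjusted p = 7.49e-08). Cecropin A CPIJ010699, of another family of such peptides, rose by 1.09 ± 0.11 (SE, limma, adjusted p = 1.21e-05). Over the 16 antimicrobial and recognition genes 2 were higher and none lower from 12 to 18 h. The list median was 0.24, or 0.01 with quantile normalization.

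Over the whole interval from 6 to 18 h, 5355 genes changed, 1142 higher (5.78% of all genes) and 4213 lower (21.3%), with a median difference of -0.36. The share higher among changed genes was 21.3% by the 75th percentile, 70.6% with median scaling and 50.5% with quantile normalization. This comparison shares its arrays with both others, so its calls are not separate evidence. Of the storage proteins 11 of 14 were higher, of the phenoloxidases 1 of 2, of the genes of the peritrophic matrix and chitin 5 of 9, and of the nervous system and sensory list 10 of 24, with 9 of that list lower. The digestive proteases had 16 of 55 higher and 8 lower, with a median of 0.45 that was 0.20 with quantile normalization. Peritrophin-1 CPIJ007901, a chitin-binding protein of the peritrophic matrix, read 4.94, 4.98, 4.97 and 5.04 on the 6 h arrays, 5.22, 5.71, 5.28 and 5.65 on the 12 h arrays and 6.13, 6.33, 6.28 and 6.14 on the 18 h arrays. It rose by 1.24 ± 0.11 from 6 to 18 h, and the second peritrophin-1 gene, CPIJ007903, by 1.07 ± 0.07 (SE, limma, adjusted p = 2.29e-06 and 3.38e-07). Serine protease CPIJ000438 was at least 38.5-fold higher at 18 h than at 6 h, and cathepsin B CPIJ000577 at least 5.36-fold.

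Genes with neighbouring identifiers shared a direction more often than genes at large, which is given as a description with no test. Of 603 genes called higher from 12 to 18 h whose next identifier was on the array, 59 (9.78%) had a neighbour called in the same direction, against 3.29% of all genes, and of 1130 called lower 135 (11.9%) did, against 6.01%. From 6 to 12 h the shares were 7.92% against 3.85% for genes called higher and 20.1% against 16.3% for genes called lower. Consecutive identifiers were read here as neighbours in the identifier list only, and related genes with like sequence can bind the same probes.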

How the data were processed

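Total RNA from pools of at least 20 midguts was labelled by the authors (200 ng per sample, Cy3 for untreated larvae), hybridised and scanned, and the intensity values were deposited as Agilent Feature Extraction 11.5.1.1 output. Per the file headers, the green processed intensity is background-subtracted and dye-normalized against the toxin channel of the same array. The log2 ratios that the authors deposited in their value table combine both channels and were not used.

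Each array has 45220 spots, of which 1417 control spots were left out, and spots marked as outliers were set to missing. Log2 signals minus the 75th percentile of the array were averaged over the spots of a probe and the probes of a gene. Differences between time points were tested with limma 3.58.1 (R 4.3.3), in a single fit of the 12 arrays with 3 group means, and Benjamini-Hochberg adjustment covered the 19751 genes of each comparison. Probes of a gene disagreed in sign for 17, 8 and 22 called genes in the 3 comparisons. Per-array measures were compared by exact permutation (SciPy 1.17.1). A fold is a bound where a gene was not well above background on any array of the dimmer time point, set at the lowest signal still well above background or the gene's own signal, whichever was higher. The pipeline was tested on simulated data. The precision is limited by 4 arrays per time point, and no depth applies to arrays.

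Gene names are those that the study's supplementary tables pair with identifiers (3781 genes, 19.1%). These genes were tabulated for a response to toxin on the same arrays. The RefSeq table matched none of the identifiers, and no probe sequences were available to print. Lists were built from these names. Named are the 20 genes of highest signal, the 5 largest rises and falls per comparison with and without a name among called genes whose groups did not overlap and whose probes were not saturated, up to 3 called members per direction and the 2 brightest of each list, S7, maltase 1 and 4 carbohydrases, and named genes above background on no array. The text gives values for part of these. Genes printed outside the rule, such as the neighbours of a named gene, were chosen after their values were seen. Members and lists were chosen with earlier results of these data known.

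The alternatives were median scaling, quantile normalization or no scaling, normexp background correction or none on median signals, other treatments of outlying and saturated spots, the brightest probe, other thresholds and adjustments, a separate fit, an intensity trend, replicate number as a block, and each array left out. The fit without the 3 arrays of bright local background was among these. Normexp used an offset of 50 signal units throughout. Added after the data were seen were normexp without those 3 arrays, fits without 12 h replicates 1 and 3 and without replicates 2 and 4, and the list counts under 10 alternatives. Slide was not used as a block because each slide holds 1 time point.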

Additional observations from a re-analysis of the deposited data

Results flagged for a closer look

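Of 228 groups of 4 arrays, for 73 genes and 3 measures per array at the 3 time points, 14 (6.14%) held an array whose gap to the nearest other was an unusually large share of the group's range by Dixon's test at the 95% level, and chance alone is set to give about 1 in 20. The share is given for each.

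Replicate 1 of 12 h stood below the other 3 arrays for larval serum protein 1 beta chain CPIJ006538 (4.14 against 4.64 to 4.73, gap share 0.861), larval serum protein 2 CPIJ001822 (5.13 against 6.06 to 6.21, 0.859) and arylphorin CPIJ009033 (5.05 against 6.83 to 7.19, 0.830). Arylphorin CPIJ009033 was also low on replicate 2 of 18 h (6.88 against 7.38 to 7.48, 0.839).

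Cathepsin B CPIJ000577 was high on replicate 4 of 12 h (-4.05 against -4.65 to -4.56, 0.847) and low on replicate 1 of 18 h (-2.73 against -2.37 to -2.29, 0.830). Cuticle protein CPIJ016323 was high on replicate 2 of 18 h (-1.24 against -2.12 to -2.05, 0.916). The unnamed gene CPIJ020215 was high on replicate 2 of 12 h (-6.35 against -7.48 to -7.29, 0.832), where it was not well above background on any array.

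The sodium/solute symporter CPIJ002361 was high on replicate 1 of 18 h (3.68 against 3.30 to 3.34, 0.900) and CPIJ001859 low on replicate 4 (1.43 against 1.51 on the others, 0.941). Acyl-CoA dehydrogenase CPIJ009148 was low on replicate 1 of 6 h (6.84 against 7.12 to 7.18, 0.832), and heat shock protein 27 CPIJ005642 was high there (-0.08 against -0.28 to -0.25, 0.849). The 26S protease regulatory subunit 4 CPIJ011552 was high on replicate 3 of 18 h (4.95 against 4.91 on the others, 0.911), and chymotrypsinogen 2 CPIJ006544 was low on replicate 4 (1.78 against 1.85 to 1.86, 0.837). The last pair differ by less than 0.1 log2 units.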

How the results depend on the processing

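No gene called both by the method used here and under an alternative had opposite signs in the 2. Signs of genes called in only 1 of the 2 were not counted. Of the 3978 genes called for 12 against 6 h, 2007 were also called with median scaling and 6 with normexp over all 12 arrays. For the genes with printed values, 139 calls were recomputed under each of 32 settings, which gave 4448 values. Of these values, 4226 kept their direction and their side of the threshold, 222 kept their direction but no longer passed, and none reversed. The 139 calls were all made by the method used here, and many genes were picked for a large difference. Settings with no fold threshold or no requirement on background cannot lose a call. These counts therefore do not measure how well calls hold in general. Under normexp over all 12 arrays, 117 of the 139 calls no longer passed. Normexp on median signals called 6, 30 and 32 genes for 12 against 6 h, 18 against 12 h and 18 against 6 h, in place of 3978, 1836 and 5355. The 3 arrays (6 h replicate 3, 12 h replicate 2, 18 h replicate 3) that stand apart hold spots of very bright local background, up to 48900, 65500 and 65500 units against 28 to 976 on the others. Without these arrays normexp called 1299, 902 and 1315 genes, and the method used here called 3828, 1952 and 5084. Median signals with no background correction gave 1969, 1047 and 1758, no scaling between arrays gave 4467 for 18 against 12 h, no fold threshold gave 10742, 7672 and 11444, and a log2 difference of at least 1 gave 2159, 829 and 3304. The cause of these differences was not tested beyond the settings themselves. Other settings, including quantile normalization and median scaling, stayed within 1.5 times the main counts. With each array left out in turn the counts ranged over 3710 to 4551, 1753 to 2079 and 5103 to 6123.

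The difference in the share of genes above background ranged from -1.19 to 3.33 percentage points for 12 minus 6 h, turning negative without 6 h replicate 1, and from -4.21 to 0.313 for 18 minus 6 h, turning positive without 6 h replicate 4. Over genes above background on all 12 arrays, the rank shift was 3.94 (6 and 12 h), 2.97 (12 and 18 h) and 4.48 (6 and 18 h) points. Of the 20 brightest genes, 4 stayed with median signals and no background correction and 12 with the brightest probe. Replicate number as a block gave 3979, 1830 and 5353 calls. Deviations of same-numbered arrays correlated between -0.21 and 0.21 across the pairs of time points, so the numbers were not read as a pairing. The scanner's ceiling and the background limit what the brightest and dimmest genes can show.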

Other observations

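The tables name 11 genes as spliceosomal RNAs (U2, U4 and U5), the small nuclear RNAs of the splicing machinery. All 11 were above background on all 12 arrays, with a median rank of 73.1 percentile points. From 6 to 12 h all 11 differences were negative with a median of -0.39, and none was called. From 12 to 18 h all 11 were positive, between 0.32 and 1.49 with a median of 0.67, and 3 were called higher. With quantile normalization the medians were -0.24 and 0.66. The group was put together after its values were seen, and related copies can bind the same probes.

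At 12 h, 10343 of 16223 genes above background on all 4 arrays (63.8%) had replicates 1 and 3 both on the same side of replicates 2 and 4, against 21.5% and 14.8% for the other ways to pair the 4 arrays. At 6 h these shares were 27.7% to 38.7%, and at 18 h 25.7% to 37.7%. The 12 h split was at least 0.5 log2 units for 1342 of these genes.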
